A study of Mus musculus with 12 samples.

Results

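The gene expression response of brain astrocytes to a stroke was followed in mice labelled Nhe1 Astro-KO, 24 h after transient middle cerebral artery occlusion (tMCAO), a stroke model with temporary closure of an artery that feeds 1 side of the brain. The comparison is between the 3 ipsilateral libraries, from the hemisphere of the occlusion, and the 3 contralateral libraries, from the opposite hemisphere of the same brains. These are 6 of the 12 libraries of the series, chosen by their titles, and the number in the title pairs both hemispheres of mice 295, 298 and 300. The deposited tables list 48709 genes, of which 15571 had enough counts to be tested, and all of them are members of the comparison.

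The mice labelled KO carried Gfap-CreERT2+/- with Nhe1f/f and received tamoxifen. The mice labelled wild-type (WT), numbered 296, 297 and 474, had the same genotype and received corn oil. All were C57BL/6 mice of postnatal day 90 to 120, and all 12 libraries come from brains with an occlusion, so no library comes from a mouse without stroke. The Cre is driven by a Gfap promoter, so astrocytes without its activity keep the gene. KO mice alone received tamoxifen, and its effect and that of the recombination cannot be told apart. The cells were dissociated from each hemisphere and are described as positive for ACSA-2, an antigen on the astrocyte protein Atp1b2. P-values below measure the spread between these mice only.

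Astrocytes are the glial cells that clear glutamate and potassium, cover blood vessels with their endfeet and supply neurons with metabolites. After ischaemia those near the damaged tissue become reactive: they enlarge, make more of the intermediate filaments GFAP and vimentin, secrete cytokines, proteases and acute-phase proteins, and later form the border of the scar. The title of the series places the deletion in relation to Wnt signalling, the blood-brain barrier and angiogenesis.

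The triplets of values below follow the order of mice 295, 298 and 300. CPM are counts relative to the scaled total of a library, and positions are in GRCm38. "KO" means the label throughout, and every direction is between libraries labelled KO unless WT is named.

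The KO libraries held 11187723 to 15780600 counts, which is also the range over all 12 libraries. Astrocyte markers were high in every KO library, with a mean over 12 genes of 9.73, 10.25 and 10.02 log2 CPM in the ipsilateral ones and 10.21, 10.36 and 10.34 log2 CPM in the contralateral ones. Oligodendrocyte markers were the next most abundant at 7.53 to 8.90 log2 CPM, so RNA of other cells was present. The share of mitochondrial genes in all counts was 1.68% ipsilaterally in mouse 298, 1.83% ipsilaterally in mouse 300, and 0.923 to 1.21% in the other KO libraries. All 3 KO mice had Xist counts of 9140 or more with at most 8 counts of Y-linked genes. Of the WT mice 297 and 474 had the same pattern, while both libraries of mouse 296 had at most 8 Xist counts and at least 2733 counts of Y-linked genes. In bulk RNA of this kind, fewer cells of a type and less RNA per cell cannot be told apart.

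Ipsilateral libraries had more of genes of inflammation, antioxidant defence, extracellular proteases, ribosome production and the interferon response, and less of genes that mark resting astrocytes. Of 15571 genes 2498 were called, 16.0% of those tested, by edgeR's quasi-likelihood test with the mouse as block and Benjamini-Hochberg adjusted p under 0.05. Higher were 1704 genes (10.9%) and lower 794 (5.10%). These shares of all genes are the background for the counts of every gene list below. The rises were also the larger changes, with a median log2 fold change of 0.83 for genes called higher and -0.64 for genes called lower, while the median of all genes was -0.02. More than 2-fold higher were 633 called genes, against 108 more than 2-fold lower, and more than 8-fold 108 against 4. Without the block for the mouse 979 genes were called, 848 higher and 131 lower, and 968 of them were among the paired calls in the same direction. On log2(TPM + 1), which also scales for length and for all reads of a library, 1012 genes were higher and 1368 lower, and the median of all genes was -0.17. The share of calls that are higher was 68.2% on counts and 42.5% on TPM, where the test and the genes tested (16367) also differ. With RLE scaling of the counts it was 68.1%, and with upper-quartile scaling 61.65%. With the main scaling it was 54.7% for the 6 KO libraries alone, 86.6% without the block and 98.5% without mouse 295. The balance between rises and falls thus depends on the setting, and the part of the scaling in the TPM result was not tested.

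The 3 mice moved together to a large extent. Over 12551 genes their ratios between the sides correlated at 0.78 for mice 295 and 298. The correlation was 0.724 for mice 295 and 300 and 0.669 for mice 298 and 300. Of the 2498 called genes 2497 went the same way in all 3 mice, and in 2190 all ipsilateral libraries lay beyond all contralateral ones. The paired test on these mice favours genes that move alike, so this agreement among called genes is largely set by the selection. Over all genes the groups lay apart in 6045, 38.8% of those tested, 2898 of them higher and 3147 lower. The log2 ratio of ipsilateral over contralateral CPM changed more than 2-fold in 1569 genes in mouse 295, in 1011 in mouse 298 and in 2963 in mouse 300. The median ratio of genes called higher was 0.81, 0.60 and 1.02 in these mice, and that of genes called lower was -0.72, -0.43 and -0.78. By these measures over many genes the response was smallest in mouse 298 and largest in mouse 300. Of all libraries, the ipsilateral one of mouse 300 had the fewest counts (11187723) and its contralateral one the most (15780600). Markers of other cells shifted in mouse 300 too, with median ratios of 1.34 for neurons, -1.42 for microglia and 1.14 for oligodendrocytes. The part of depth and of cell types in the order of the mice was not tested. Single lists did not all keep that order: the median of pan-reactive genes was 1.98, 2.36 and 1.63, that of cytokine genes 1.40, 1.97 and 1.55, and that of interferon-induced genes 1.32, 1.13 and 0.92 in mice 295, 298 and 300. The number of calls rests on all 3 mice: it was 130 without mouse 295, 1619 without mouse 298 and 340 without mouse 300, and 113 genes, 111 of them higher, were called in all 3 of these fits. Most gene lists below lost calls as well: without mouse 295 at most 4 members of a list were called, except for 12 of the cytokine list, and without mouse 300 at most 9, except for 19 of the cytokine list. The neuronal list kept its 1 call without mouse 300, and the microglial list, with none in the full fit, had 2. Of 170 named genes that passed, 33 passed under every one of 17 alternative settings.

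**Figure D1:**
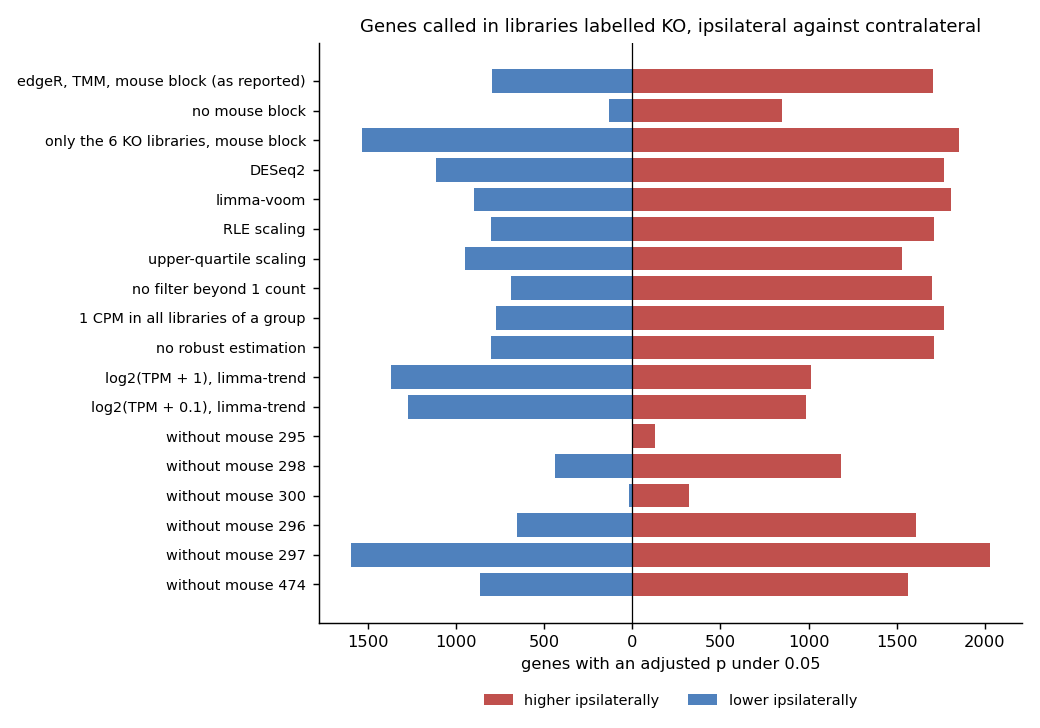
Number of genes with an adjusted p under 0.05 in the libraries labelled KO (horizontal axis) under each setting, with genes higher ipsilaterally drawn to the right and genes lower ipsilaterally to the left of 0. Leaving out mouse 295 leaves 130 genes and leaving out mouse 300 leaves 340, while the 2 fits on TPM have more falls than rises.

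The largest rise among genes with a mean of at least 2 log2 CPM in KO libraries was that of Ptx3 (chr3:66219910-66225805), a secreted pattern recognition protein. It had 39.6, 66.9 and 86.5 CPM in the ipsilateral libraries, against 0.654, 0.662 and 0.882 CPM in the contralateral ones (log2 fold change 6.43 ± 0.40, adjusted p = 0.000772). Values with ± are log2 fold changes with their standard error throughout, also after "rose by". Gdf15, a stress-induced secreted factor of the TGF-beta family, had 70.4, 8.86 and 68.1 CPM ipsilaterally, against 1.39, 0.441 and 0.504 CPM contralaterally (5.92 ± 0.57, adjusted p = 0.00309). Both stood apart between the sides in all 3 mice, with Gdf15 lowest in mouse 298 on the ipsilateral side. Sphk1, which makes sphingosine 1-phosphate, had 31.9, 15.6 and 53.1 CPM ipsilaterally, against 1.64, 0.368 and 0.756 CPM contralaterally (5.20 ± 0.74, adjusted p = 0.00936). Tgm1, a protein-crosslinking transglutaminase, had 67.3, 73.2 and 165 CPM ipsilaterally, against 2.45, 1.25 and 7.94 CPM contralaterally (4.86 ± 0.45, adjusted p = 0.00273). Spp1, the matrix protein osteopontin, had 558, 350.2 and 316 CPM ipsilaterally, against 21.6, 11.4 and 14.7 CPM contralaterally (4.68 ± 1.15, adjusted p = 0.0351). In each of these 3 genes every ipsilateral library exceeded every contralateral one. The others of the 15 largest rises were Timp1, Ackr1, Hmox1, Tnfrsf12a, Lcn2, Tubb6, Msr1, Srxn1, Cxcl10 and Sv2c, with log2 fold changes of 3.61 to 4.46. Of the 15, Ptx3, Gdf15, Tgm1, Ackr1, Msr1 and Srxn1 were called under all alternatives tried, and Spp1, Timp1 and Cxcl10 lost the call under 4 or 5.

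**Figure D2:**
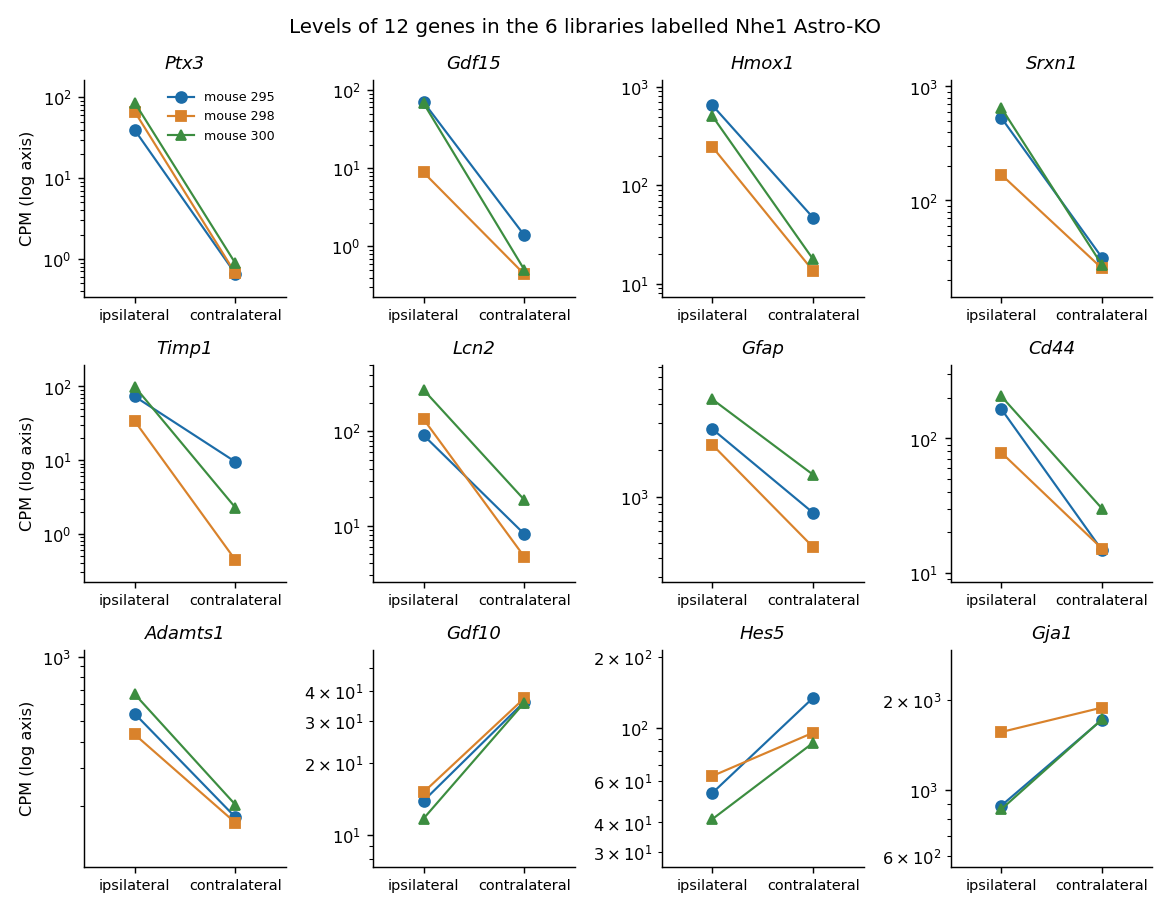
CPM on a log axis of 12 genes in the ipsilateral library (left) and the contralateral library (right) of mice 295, 298 and 300, joined within a mouse. Ptx3, Gdf15, Hmox1, Srxn1, Timp1, Lcn2, Gfap, Cd44 and Adamts1 rise and Gdf10, Hes5 and Gja1 fall on the ipsilateral side in every mouse, and mouse 298 is the lowest ipsilateral library in Gdf15, Hmox1, Srxn1, Timp1, Gfap, Cd44 and Adamts1.

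Promoter sequence was looked at for these 15 genes in the RefSeq set of GRCm38.p6, which lists 250 bases before to 50 after a start and holds 12 of them. Motifs of 8 factor families linked to injury were searched on both strands. They were AP-1 (TGANTCA), CRE (TGACGTCA), ARE (TGACNNNGC), a loose NF-kB pattern, STAT (TTCNNNGAA), a C/EBP motif (TTGCNNAA), the heat shock element and the C/EBP-ATF response element (TGATGNAA). In all 32851 promoters of the set 7.81% held AP-1, 1.79% CRE, 12.4% ARE, 50.8% the NF-kB pattern, 8.30% STAT, 10.8% the C/EBP motif, 0.603% the heat shock element and 3.97% the C/EBP-ATF element. The stretches that hold a motif other than the NF-kB pattern before the start are shown for 5 genes, since these genes are among the largest rises and differ in the motifs they hold. Capitals mark the motifs other than the NF-kB pattern, which is left unmarked, and each stretch runs 5′ to 3′ on the gene's strand.
Ptx3, chr3:66219810-66219857, plus strand: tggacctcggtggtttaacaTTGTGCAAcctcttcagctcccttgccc
Tgm1, chr14:55713528-55713685, minus strand: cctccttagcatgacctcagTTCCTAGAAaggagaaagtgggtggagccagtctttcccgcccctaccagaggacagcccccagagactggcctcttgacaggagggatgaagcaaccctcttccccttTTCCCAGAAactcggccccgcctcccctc
Lcn2, chr2:32387928-32387975, minus strand: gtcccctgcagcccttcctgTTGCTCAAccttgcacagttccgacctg
Srxn1, chr2:152105402-152105505, plus strand: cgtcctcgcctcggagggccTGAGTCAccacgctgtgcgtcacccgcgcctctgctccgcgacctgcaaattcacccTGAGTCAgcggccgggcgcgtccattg
Cxcl10, chr5:92348937-92348985, minus strand: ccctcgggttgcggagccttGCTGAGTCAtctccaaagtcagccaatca
Of the other 7, Gdf15, Sphk1, Timp1 and Tnfrsf12a hold only the NF-kB pattern, and Spp1, Ackr1 and Sv2c hold no motif. All of the genes shown hold the NF-kB pattern too. Apart from it, Ptx3 and Lcn2 hold the C/EBP motif and Tgm1 holds 2 STAT motifs. Srxn1 holds 2 AP-1 motifs and, outside the stretch shown, an ARE match. In Cxcl10 an AP-1 motif lies within an ARE match. A match is only these letters in this window. A comparison of called genes with all genes is void, because 75.0% of the genes tested, 76.9% of those called higher and 78.0% of those called lower had a promoter in the set.

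The genes that define reactive astrocytes rose. Of 13 genes induced in reactive astrocytes after most injuries 11 were called higher and none lower, with a median log2 fold change of 2.10. Gfap (chr11:102887336-102900912), the astrocyte filament protein, had 2752, 2177 and 4296 CPM in the ipsilateral libraries, against 787, 471 and 1391 CPM in the contralateral ones (1.88 ± 0.20, adjusted p = 0.00273). The groups did not overlap, and mouse 300 was highest on both sides. Cd44, the hyaluronan receptor, had 166, 78.6 and 206 CPM ipsilaterally, against 14.7, 15.1 and 30.1 CPM contralaterally (2.88 ± 0.28, adjusted p = 0.00273). Lcn2, an iron-binding acute-phase protein, had 91.2, 135 and 275 CPM ipsilaterally, against 8.18, 4.70 and 18.8 CPM contralaterally (4.03 ± 0.58, adjusted p = 0.00946), Aspg rose by 2.10 ± 0.20, and S1pr3, a receptor of sphingosine 1-phosphate, by 1.02 ± 0.16. The filament gene Vim did not pass in edgeR's quasi-likelihood test, with 1337, 918 and 1931 CPM ipsilaterally against 848, 713 and 1042 CPM contralaterally (0.64 ± 0.21, adjusted p = 0.0701). It passed in DESeq2 (adjusted p = 0.00964) and in edgeR with the 6 KO libraries alone (0.0337), without WT mouse 297 (0.0423) or without WT mouse 474 (0.0353), and its adjusted p over all alternatives was 0.00964 to 0.315. Without the block 5 of the 13 were called.

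Genes named A2, after their induction by ischaemia, had a median of 2.54 with 10 of 12 higher, and genes named A1, after their induction by endotoxin, a median of 0.44 with 6 of 12 higher and none lower in either list. Ptgs2, the inducible cyclooxygenase, had 84.7, 71.1 and 89.7 CPM ipsilaterally, against 13.3, 6.396 and 13.04 CPM contralaterally (2.95 ± 0.37, adjusted p = 0.00675), and Emp1 rose by 2.13 ± 0.29. Of the A1 list Srgn, a proteoglycan of secretory granules, had 72.1, 55.4 and 63.3 CPM ipsilaterally, against 28.5, 22.7 and 30.7 CPM contralaterally (1.22 ± 0.13, adjusted p = 0.00289), Psmb8 rose by 1.15 ± 0.14 and H2-D1 by 0.64 ± 0.11. Without the block 9 A2 genes and 3 A1 genes were called. Of 27 filament, annexin and actin genes 17 were higher (median 0.69; 9 without the block). Tubb6, a beta-tubulin, had 81.2, 47.6 and 132 CPM ipsilaterally, against 8.02, 5.44 and 3.78 CPM contralaterally (3.84 ± 0.52, adjusted p = 0.00849), Tuba1c rose by 2.24 ± 0.20, and the membrane-actin linker Msn by 1.43 ± 0.21.

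**Figure D3:**
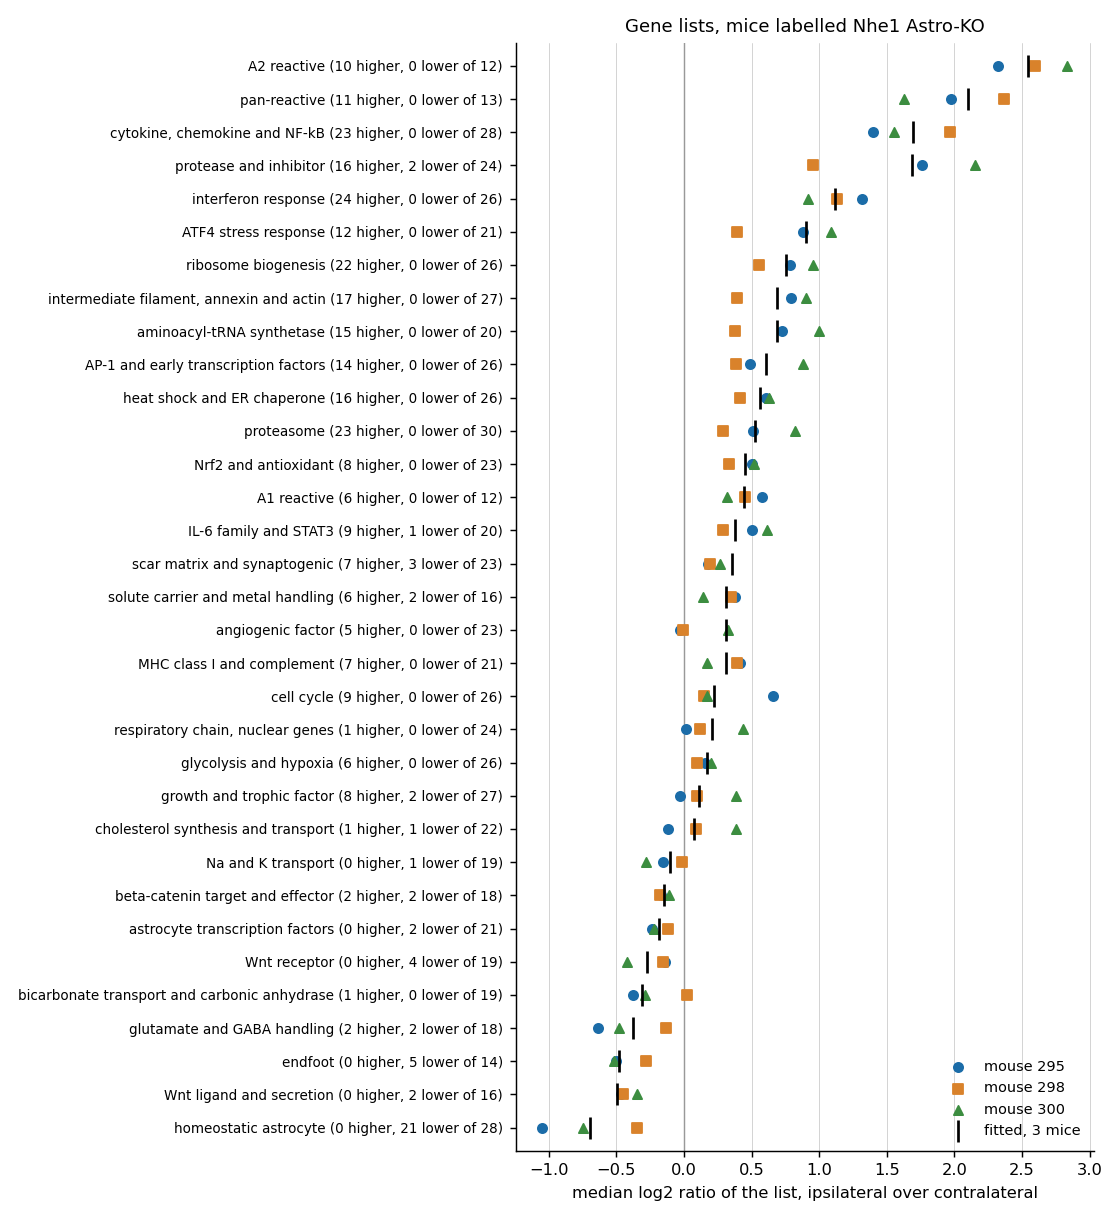
Median log2 ratio of ipsilateral over contralateral CPM for 33 gene lists (rows, with the number of genes called higher and lower of those tested) in mice 295, 298 and 300, with the median of the fitted log2 fold changes as a black bar. The A2, pan-reactive, cytokine, protease and interferon lists lie at 0.92 or more in all 3 mice and the homeostatic astrocyte list lies below 0 in all 3, nearest to 0 in mouse 298.

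Cytokines, chemokines and genes of NF-kB signalling rose in 23 of 28 cases, with none lower and a median of 1.69. Lif, a cytokine of the IL-6 family, had 52.1, 22.4 and 57.1 CPM ipsilaterally, against 5.56, 4.48 and 6.30 CPM contralaterally (2.92 ± 0.22, adjusted p = 0.00101). Il1rn, the antagonist of the IL-1 receptor, had 25.2, 31.4 and 18.9 CPM ipsilaterally, against 0.736, 0.147 and 0 CPM contralaterally (6.52 ± 0.51, adjusted p = 0.00163). The adhesion receptor Icam1 had 84.7, 62.8 and 102 CPM ipsilaterally, against 34.4, 22.4 and 34.8 CPM contralaterally (1.45 ± 0.15, adjusted p = 0.00271). All ipsilateral libraries lay above all contralateral ones in these 3 genes. Sele and Selp, the selectins of activated endothelium, rose by 5.73 ± 0.35 and 7.55 ± 0.53, with Selp at 5 counts in all contralateral libraries, and Ackr1, the chemokine receptor of venules, had 34.7, 35.3 and 132 CPM ipsilaterally, against 1.80, 2.06 and 6.24 CPM contralaterally (4.27 ± 0.37, adjusted p = 0.00202). Endothelial markers averaged 6.95, 6.84 and 7.30 log2 CPM ipsilaterally and 6.73, 6.91 and 7.29 log2 CPM contralaterally. Of 12 such genes edgeR called 2, both higher, and DESeq2 called 7, of which 4 were higher and 3 lower. The part of endothelial cells in the rise of the selectins and Ackr1 was not tested. Without the block 17 of the 28 cytokine genes were called, without mouse 295 12 and without mouse 300 19.

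Of 20 genes of the IL-6 family and STAT3 signalling 9 were higher and 1 lower (median 0.38). Ligands were among them: Il11 had 16.4, 4.85 and 92.9 CPM ipsilaterally, against 0.245, 0.368 and 0.252 CPM contralaterally (6.76 ± 0.68, adjusted p = 0.0036), and Clcf1 had 85.2, 49.04 and 131 CPM ipsilaterally, against 8.02, 6.76 and 6.81 CPM contralaterally (3.52 ± 0.50, adjusted p = 0.00935). Il11 varied widely among the ipsilateral libraries, lowest in mouse 298 and highest in mouse 300. The transcription factor Stat3 rose by 1.004 ± 0.12 and its feedback inhibitor Socs3 by 1.15 ± 0.17. Of 26 AP-1 and early transcription factors 14 were higher and none lower (median 0.60; 5 without the block). Fosl1, a Fos family partner of Jun, had 44.4, 17.2 and 67.04 CPM ipsilaterally, against 0.0818, 0 and 0.252 CPM contralaterally, of which the contralateral values come from 5 counts in all (8.44 ± 0.78, adjusted p = 0.00273). Exons of Fosl1 overlap those of Ccdc85b, and the strand of counting is not given, so the source of its reads is uncertain. The same holds for Ackr1 with Cadm3, Cxcl10 with Art3, Stat3 with Stat5a, Cebpd with Spidr, Irf7 with Phrf1, Tap1 with Psmb9 and Hspd1 with Hspe1. Runx1 rose by 1.72 ± 0.17, Cebpd by 1.81 ± 0.15, Myc by 1.56 ± 0.21 and Fosl2 by 1.24 ± 0.18. The groups lay apart in all 5 of these factors.

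Interferon-induced genes were higher in 24 of 26 cases with none lower (median 1.12; 13 without the block, 3 without mouse 295, 14 on TPM). Bst2, which holds back budding viruses, had 48.2, 21.2 and 29.99 CPM ipsilaterally, against 18.2, 10.3 and 11.7 CPM contralaterally (1.27 ± 0.13, adjusted p = 0.00271). Irgm1, an interferon-inducible GTPase, had 56.7, 57.3 and 62.7 CPM ipsilaterally, against 21.9, 21.02 and 29.5 CPM contralaterally (1.30 ± 0.16, adjusted p = 0.00451). Mx1 had 9.04, 7.74 and 3.25 CPM ipsilaterally, against 2.05, 0.956 and 0.252 CPM contralaterally (2.77 ± 0.32, adjusted p = 0.00365), and the groups lay apart in all 3 genes. Rsad2 rose by 1.64 ± 0.22 and the transcription factor Irf7 by 1.47 ± 0.22. Of 21 genes of MHC class I and complement 7 were higher and none lower (median 0.31), among them B2m, the light chain of class I (0.72 ± 0.12), the peptide transporter Tap1 (0.87 ± 0.13) and the complement protease C1ra (1.19 ± 0.25).

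Extracellular proteases and their inhibitors were higher in 16 of 24 cases and lower in 2 (median 1.69; 11 and 0 without the block). Adamts1, a protease that cleaves proteoglycans, had 542, 433 and 668 CPM ipsilaterally, against 178, 167 and 203 CPM contralaterally (1.57 ± 0.15, adjusted p = 0.00202). Timp1, an inhibitor of metalloproteinases, had 73.2, 34.1 and 99.8 CPM ipsilaterally, against 9.49, 0.441 and 2.27 CPM contralaterally (4.46 ± 0.94, adjusted p = 0.0234). Both stood apart, with a wide spread of Timp1 on the contralateral side. Klk9 (chr7:43791891-43796757), a kallikrein protease, had 8.96, 3.52 and 22.4 CPM ipsilaterally, from 406 counts in all, and no count in the contralateral libraries, which is at least 145-fold higher when the contralateral group is set at a floor of 3 counts. Set at that bound it leaves the median of the list at 1.69. The floor covers counting error only. The metalloproteinase Mmp3 rose by 6.95 ± 0.88, against 4 contralateral counts, and Plau, the urokinase plasminogen activator, by 1.70 ± 0.23. Of 23 matrix genes of the scar and of synapse formation 7 rose and 3 fell (median 0.36), while 4 rose and none fell without the block, and 6 rose and 6 fell on TPM (median 0.18). The median was 0.16 without mouse 300. Tnc, tenascin C, had 177, 51.6 and 380.1 CPM ipsilaterally, against 23.8, 12.6 and 11.9 CPM contralaterally (3.30 ± 0.55, adjusted p = 0.0131), and Thbs1, thrombospondin 1, had 228, 97.2 and 276 CPM ipsilaterally, against 27.9, 10.8 and 12.9 CPM contralaterally (3.54 ± 0.42, adjusted p = 0.00601). Hapln1, which links hyaluronan to proteoglycans, was called lower with -0.93 ± 0.22.

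Antioxidant genes showed a few large rises. Of 23 genes controlled by Nrf2 or acting against oxidants 8 were higher and none lower (median 0.45; 6 without the block). Hmox1, which degrades haem, had 650.4, 246 and 505 CPM ipsilaterally, against 46.7, 13.5 and 17.6 CPM contralaterally (4.27 ± 0.66, adjusted p = 0.0116). Srxn1, which restores oxidised peroxiredoxins, had 532, 169 and 649 CPM ipsilaterally, against 31.5, 25.4 and 27.2 CPM contralaterally (3.81 ± 0.39, adjusted p = 0.0036). Txnrd1, thioredoxin reductase, had 464, 205 and 438 CPM ipsilaterally, against 56.9, 49.3 and 62.9 CPM contralaterally (2.63 ± 0.28, adjusted p = 0.00369). In all 3 the ipsilateral library of mouse 298 was lowest of its group and still above every contralateral one. Gpx1 rose by 0.99 ± 0.13 and Txn1 by 0.71 ± 0.14. On TPM 2 genes of the list were called lower.

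Genes of the ATF4 response to amino acid shortage and unfolded proteins were higher in 12 of 21 cases with none lower (median 0.90; 8 without the block; 7 higher and 1 lower on TPM). Mthfd2, a mitochondrial enzyme of folate metabolism, had 28.1, 20.5 and 40.3 CPM ipsilaterally, against 7.36, 6.76 and 8.88 CPM contralaterally (1.91 ± 0.23, adjusted p = 0.0049). Asns, asparagine synthetase, rose by 2.37 ± 0.35, Aldh1l2 by 1.77 ± 0.30 and Atf4 itself by 0.95 ± 0.19. Heat shock proteins and chaperones of the endoplasmic reticulum were higher in 16 of 26 cases (median 0.56), but without the block 1 was called, without mouse 295 or mouse 300 none, and on TPM 8 were higher and 1 lower. Hspd1, the mitochondrial chaperonin, had 236, 197 and 308 CPM ipsilaterally, against 125, 117 and 139 CPM contralaterally (0.94 ± 0.15, adjusted p = 0.0103), Hspa8 rose by 0.81 ± 0.16 and Hspa5 by 0.73 ± 0.14. The small chaperone Hspb1 rose by 0.93 ± 0.17 although its groups overlapped.

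The machinery that makes and breaks down proteins rose by small steps. Of 26 genes of ribosome biogenesis 22 were higher (median 0.76; 17 without the block), of 20 aminoacyl-tRNA synthetases 15 (0.69; 14) and of 30 proteasome subunits 23 (0.53; 12), with none lower in these lists. On TPM 18, 11 and 8 genes of these 3 lists were called higher. Nop58, a protein of small nucleolar particles, had 61.7, 46.4 and 89.3 CPM ipsilaterally, against 20.04, 21.8 and 22.4 CPM contralaterally (1.57 ± 0.21, adjusted p = 0.00699). Ddx21, a nucleolar helicase, had 129, 97.2 and 141 CPM ipsilaterally, against 51.1, 51.4 and 53.2 CPM contralaterally (1.22 ± 0.16, adjusted p = 0.00638). The contralateral values of both lay within a narrow range and below every ipsilateral one. Ncl, nucleolin, rose by 0.97 ± 0.15, the glycyl-tRNA synthetase Gars by 0.96 ± 0.16 and the proteasome subunit Psmd11 by 0.77 ± 0.14. Without mouse 295 no member of these 3 lists was called, and without mouse 300 4 genes of ribosome biogenesis were, while the medians stayed between 0.36 and 0.88 without any 1 KO mouse.

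Of 26 genes of glycolysis and hypoxia 6 were higher and none lower, which is 23.1% called, against 16.0% of all genes, and the median was 0.17 on counts and just below 0 on TPM. Slc16a3, which exports lactate, had 15.03, 9.92 and 11.2 CPM ipsilaterally, against 4.91, 3.09 and 3.97 CPM contralaterally (1.59 ± 0.19, adjusted p = 0.00414), lactate dehydrogenase Ldha rose by 0.91 ± 0.14 and hexokinase Hk2 by 1.02 ± 0.18. Of 24 nuclear genes of the respiratory chain 1 was higher (4.17%), Cycs (0.92 ± 0.20). Of 22 genes of cholesterol synthesis and transport 1 was higher and 1 lower (9.09% called), Hsd17b7 (0.64 ± 0.16) and the transcription factor Srebf1 (-0.47 ± 0.12). Of 26 cell cycle genes 9 were higher and none lower (median 0.22), with Gadd45b, induced by stress, rising by 2.36 ± 0.34, Ccnd1 by 1.57 ± 0.25 and the replication proteins Mcm5 and Pcna by 1.29 ± 0.21 and 0.77 ± 0.14. Of 16 solute carriers and genes of metal handling 6 were higher and 2 lower: the zinc importer Slc39a14 rose by 1.27 ± 0.13, the metallothionein Mt2 by 1.21 ± 0.18, and Ftl1, a ferritin chain, by 1.17 ± 0.21.

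Growth and trophic factors split by gene, with 8 of 27 higher and 2 lower and a median of 0.11 on counts and -0.06 on TPM. Hbegf, a ligand of the EGF receptor, had 146, 115 and 210.2 CPM ipsilaterally, against 46.8, 56.2 and 61.1 CPM contralaterally (1.48 ± 0.15, adjusted p = 0.00271). Bdnf, a neurotrophin, had 6.74, 4.71 and 6.30 CPM ipsilaterally, against 1.15, 1.397 and 1.39 CPM contralaterally (2.15 ± 0.32, adjusted p = 0.00849), and Tgfa rose by 0.87 ± 0.17. Of 23 angiogenic factors 5 were higher and none lower (21.7%), against 10.9% of all genes called higher and 16.0% called in either direction. Their median was 0.31 on counts and -0.02 on TPM, where 4 were higher and 2 lower. Angpt2, a ligand of the endothelial receptor Tie2, had 13.7, 7.46 and 27.9 CPM ipsilaterally, against 4.50, 2.94 and 4.47 CPM contralaterally (1.90 ± 0.32, adjusted p = 0.0129), and endothelin Edn1 rose by 1.34 ± 0.29. Vegfa did not pass in edgeR's quasi-likelihood test, with 328, 413 and 327 CPM ipsilaterally against 537, 492 and 445 CPM contralaterally (-0.47 ± 0.14, adjusted p = 0.0561), although its groups did not overlap. It was called lower in DESeq2 and on TPM (adjusted p = 0.0227 in DESeq2 and on log2(TPM + 1)), with upper-quartile scaling (0.0445), and without WT mouse 297 (0.0448) or 474 (0.0465), and its adjusted p over all alternatives was 0.0227 to 0.264.

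No gene of Wnt ligands, their secretion or their receptors was called higher by edgeR, DESeq2, limma-voom or on TPM. None was higher at an unadjusted p under 0.05 in edgeR's full fit. In the fits without mouse 295 and without mouse 298, 1 ligand or secretion gene each was higher at that level. Wnt7a and Wnt7b are ligands of barrier formation in brain vessels. Wnt7a had 58.2, 76.1 and 56.1 CPM ipsilaterally, against 96.3, 87.4 and 80.6 CPM contralaterally (-0.48 ± 0.23, adjusted p = 0.167), and Wnt7b had 164, 161 and 159 CPM ipsilaterally, against 167, 154 and 157 CPM contralaterally (0.02 ± 0.10, adjusted p = 0.897). Wnt7a lay apart and did not pass in the full fit, but it was called lower in edgeR with the 6 KO libraries alone. It passed under no other alternative. Wnt7b overlapped and its sign turned under upper-quartile scaling and on TPM. Of 16 ligands and secretion factors 2 were lower (12.5%), against 5.10% of all genes called lower and 16.0% called in either direction. They were Porcn, which lipidates Wnts (-0.55 ± 0.12), and Wls, which carries them to the surface (-0.56 ± 0.10). Of 19 receptors 4 were lower (21.1%). Fzd2 had 77.5, 122 and 92.1 CPM ipsilaterally, against 176, 178 and 199 CPM contralaterally (-0.95 ± 0.16, adjusted p = 0.0114), Fzd10 had 8.81, 12.2 and 4.20 CPM ipsilaterally, against 26.9, 24.5 and 18.3 CPM contralaterally (-1.55 ± 0.26, adjusted p = 0.0111), and Reck, a partner of the Wnt7 receptor complex, had -0.66 ± 0.16. Axin2, a feedback target of beta-catenin, had 49.6, 46.1 and 40.8 CPM ipsilaterally, against 75.02, 71.2 and 71.6 CPM contralaterally (-0.68 ± 0.12, adjusted p = 0.0129), with every ipsilateral library below every contralateral one. Of 18 targets and effectors 22.2% were called, against 16.0% of all genes. Higher were 2, Ccnd1 and Myc, which many other pathways also induce, and lower were 2, Axin2 and Znrf3 (-0.37 ± 0.10).

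Genes of resting astrocytes fell. Of 28 homeostatic astrocyte genes 21 were called lower and none higher, with a median of -0.69. Gdf10 (chr14:33923587-33937983), a ligand of the TGF-beta family, had 13.9, 15.1 and 11.7 CPM ipsilaterally, against 36.1, 37.3 and 35.8 CPM contralaterally (-1.42 ± 0.16, adjusted p = 0.00329), and it is the only fall among the 33 named genes called under all alternatives. Hes5, a Notch target, had 53.3, 62.9 and 41.4 CPM ipsilaterally, against 135, 95.9 and 86.9 CPM contralaterally (-1.004 ± 0.17, adjusted p = 0.0116). Prodh, proline dehydrogenase, had 129.9, 214 and 162 CPM ipsilaterally, against 283, 323 and 321 CPM contralaterally (-0.90 ± 0.15, adjusted p = 0.0116). All 3 lay apart between the sides. The median ratio of the list was -1.05, -0.35 and -0.75 in mice 295, 298 and 300, so all 3 went down and mouse 298 least. Without the block 3 of the 28 were called lower, without mouse 295 or mouse 300 1 and without mouse 298 15.

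Endfoot genes were lower in 5 of 14 cases with none higher (median -0.48; 0 without the block, 8 in DESeq2, 9 on TPM). Gja1, the main astrocyte connexin, had 886, 1565 and 861 CPM ipsilaterally, against 1722, 1890.4 and 1726 CPM contralaterally (-0.75 ± 0.17, adjusted p = 0.0247), and the connexin Gjb6 had 354, 701 and 533 CPM ipsilaterally, against 645, 819.7 and 873 CPM contralaterally (-0.60 ± 0.17, adjusted p = 0.0482). Gja1 lay apart and Gjb6 overlapped. The water channel Aqp4 had 543, 776 and 524 CPM ipsilaterally, against 612, 672 and 643 CPM contralaterally (-0.09 ± 0.15, adjusted p = 0.694), and was lower in mice 295 and 300 and higher in mouse 298. Of 21 astrocyte transcription factors 2 were lower (9.52%), Hes5 and Id4 (-0.64 ± 0.14), and the median was -0.18. Of all genes 16.0% were called, 5.10% lower. Of 18 genes of glutamate and GABA handling 2 were higher and 2 lower (22.2% called, median -0.38), while on TPM 10 were lower and none higher. The glutamate receptor subunits Gria2 and Grin2c had -1.03 ± 0.25 and -0.69 ± 0.15, both called lower, and the metabotropic receptor Grm5 rose by 1.76 ± 0.39. Of 19 sodium and potassium transport genes 1 was lower (5.26%), the potassium channel Kcnk2 (-0.52 ± 0.12). Of 19 bicarbonate transporters and carbonic anhydrases 1 was higher (5.26%), Car13 (0.79 ± 0.22), a call lost under 12 of 17 alternatives.

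Apart from that of Sspo, the 15 largest falls were smaller than the 15 largest rises. Sspo, which encodes SCO-spondin, a secreted protein of the subcommissural organ, had 46.5, 29.8 and 14.6 CPM ipsilaterally, against 920.1, 1294 and 217 CPM contralaterally (-4.56 ± 1.27, adjusted p = 0.0495), its spread within both sides was wide, and the call was lost under 5 of 17 alternatives. All 10 ependymal and choroid plexus markers also had log2 fold changes below 0, and their part in the fall of Sspo was not tested. Fzd10 and Gdf10 are also among them, and the others were Ces1d, Fam184b, Slc35g3, Acss3, Acsm5, Stab2, Miat, Nsg2, Wfikkn2, C2, Grm4 and Nphs1, with log2 fold changes of -1.66 to -1.21. Miat, a long noncoding RNA, had 37.3, 45.2 and 19.1 CPM ipsilaterally, against 77.8, 83.6 and 70.8 CPM contralaterally (-1.26 ± 0.19, adjusted p = 0.00921), and Nsg2, known from neurons, had 13.9, 16.7 and 10.6 CPM ipsilaterally, against 36.4, 43.3 and 21.2 CPM contralaterally (-1.26 ± 0.18, adjusted p = 0.00806). Exons of Miat overlap other annotated genes, and those of Nsg2 do not.

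Markers of other cells moved with the side as well. Oligodendrocyte markers averaged 8.50, 8.64 and 8.90 log2 CPM ipsilaterally, against 8.24, 7.93 and 7.53 log2 CPM contralaterally, so every ipsilateral library was above every contralateral one. Of 12 such markers 5 were called higher (41.7%, against 10.9% of all genes), with a median of 0.84. Among them were the myelin proteins Mag, with 763, 684 and 699 CPM ipsilaterally against 572, 358 and 281 CPM contralaterally (0.89 ± 0.23, adjusted p = 0.0375), and Cldn11, which rose by 1.06 ± 0.23. No oligodendrocyte marker was called without mouse 298 or without mouse 300. Astrocyte markers had 3 of 12 lower, Gja1, Gjb6 and Fgfr3, and a median of -0.29. The part of this shift between cell types in the falls of astrocyte genes, and in the other lists, was not tested.

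Microglial markers averaged 6.75, 6.29 and 3.77 log2 CPM ipsilaterally, against 6.11, 5.46 and 5.34 log2 CPM contralaterally, higher in mice 295 and 298 and lower in mouse 300. None of 12 was called in the full fit by edgeR's quasi-likelihood test, where 2 had an unadjusted p under 0.05. DESeq2 called C1qb higher and P2ry12 lower, and limma-voom called Aif1 higher, as did edgeR without WT mouse 297. Their median was 0.15 with all mice and 0.86 without mouse 300, when 2 were called higher. C1qb, a complement subunit of microglia, had 407, 214 and 72.97 CPM ipsilaterally, against 154, 77.7 and 83.4 CPM contralaterally (0.91 ± 0.34, adjusted p = 0.104). Of 12 monocyte and macrophage markers 5 were higher and 1 lower (median 0.73). Arg1, arginase, had 18.7, 2.18 and 6.88 CPM ipsilaterally, against 0.982, 0.0735 and 0 CPM contralaterally (4.97 ± 0.61, adjusted p = 0.00485). Chil3, a chitinase-like protein, had 12.9, 9.29 and 13.9 CPM ipsilaterally, against 1.06, 1.69 and 0.630 CPM contralaterally (3.43 ± 0.57, adjusted p = 0.0129), and every ipsilateral library was higher in both genes. Cd163, a marker of border macrophages, had 18.1, 15.3 and 7.93 CPM ipsilaterally, against 28.7, 20.1 and 21.99 CPM contralaterally (-0.82 ± 0.20, adjusted p = 0.0303). Msr1, a scavenger receptor of macrophages and among the 15 largest rises, had 90.2, 70.1 and 16.7 CPM ipsilaterally, against 7.04, 2.72 and 2.08 CPM contralaterally (3.82 ± 0.39, adjusted p = 0.00369). The other lists had at most 2 genes called in edgeR's full fit. They were Cxcr2 of 6 neutrophil genes, Tubb3 of 12 neuronal ones, Col3a1 of 10 fibroblast ones, and Pecam1 and Emcn of 12 endothelial ones. These shares were 8.33 to 16.7%, against 16.0% of all genes. Of 10 lymphocyte genes 1, Cd2, had enough counts to be tested, and of 10 neutrophil genes 6. Of 10 ependymal and choroid plexus markers 1, Otx2, was called lower by edgeR and 8 by DESeq2, and all 10 had log2 fold changes of -0.89 to -0.60 (median -0.78; -0.67, -0.50 and -1.13 in mice 295, 298 and 300). Neuronal markers had a median ratio of -0.42, 0.19 and 1.34 in mice 295, 298 and 300. In edgeR's full fit no gene of 8 oligodendrocyte precursor markers, 10 pericyte and smooth muscle markers or 5 red blood cell genes was called. There 2 precursor and 2 pericyte markers had an unadjusted p under 0.05 and none of the red blood cell genes. Sox10, Olig2 and Kcnj8 were called higher by edgeR with the 6 KO libraries alone. Without WT mouse 297 Olig2 and Kcnj8 were called, and Kcnj8 also without mouse 298 and with no filter beyond 1 count. DESeq2 called the precursor markers Sox10 (higher) and Tnr (lower) and the pericyte and smooth muscle markers Kcnj8 (higher) and Myh11 (lower), and limma-voom called Kcnj8. The part of these cells in the rises of cytokine and protease genes was not tested.

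**Figure D4:**
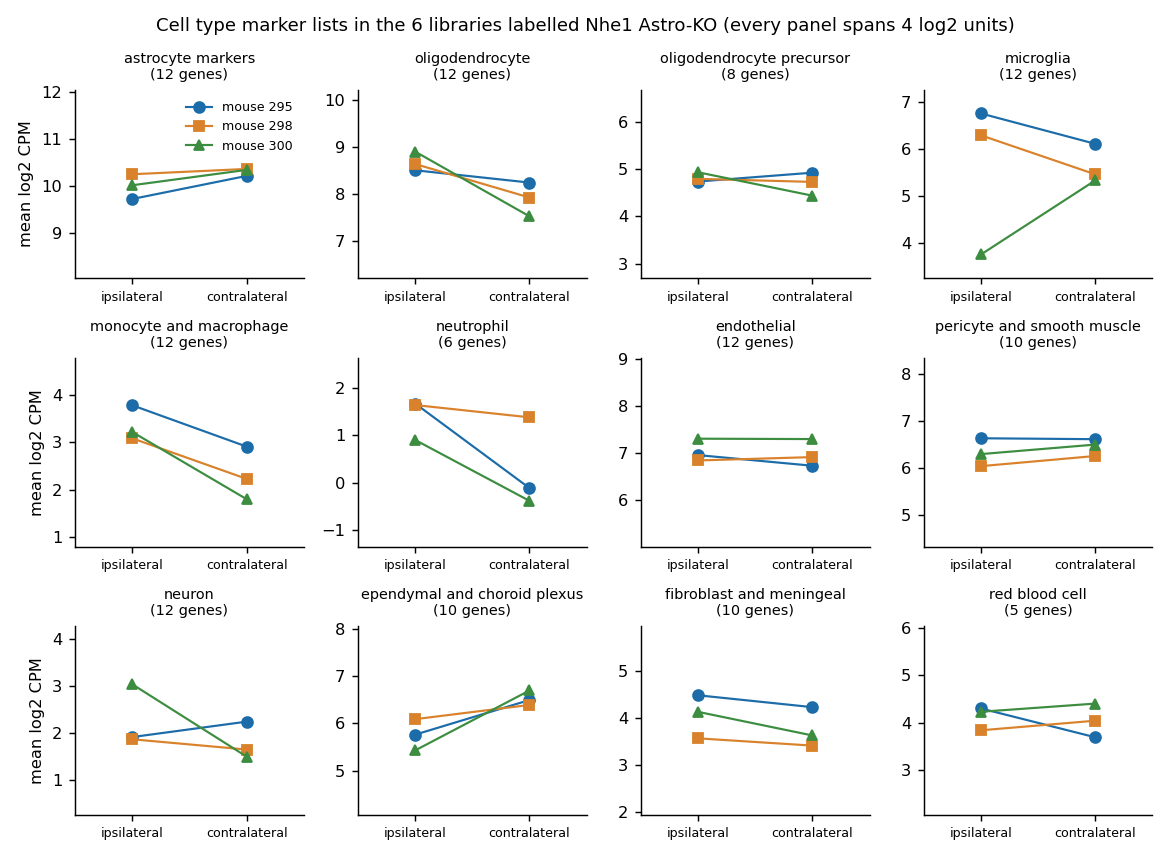
Mean log2 CPM of 12 cell type marker lists in the ipsilateral library (left) and the contralateral library (right) of mice 295, 298 and 300, joined within a mouse, with 4 log2 units in every panel. Oligodendrocyte markers are higher ipsilaterally in all 3 mice, and microglial markers are higher in mice 295 and 298 and lower in mouse 300.

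Set beside the WT mice, the response of the KO mice had mostly the same direction. In WT libraries 4641 genes, 29.8% of those tested, were called between the sides, 2289 higher and 2352 lower. Of the 2498 genes called in KO libraries 1961 were called the same way in WT libraries, which is 78.5% of the KO calls and 42.3% of the WT calls. Another 535 were not called in WT, and 2 were called in opposite directions, Ip6k3 and mt-Atp8. Without WT mouse 296, whose sex counts differ from those of all other mice, 1833 of the KO calls (73.4%) were called the same way in WT libraries. Without WT mouse 297 these were 1353 (54.2%), and without WT mouse 474 1416 (56.6%), so this share depends on the WT mice used. The sign was the same in 2478, 2437 and 2466 KO calls without mice 296, 297 and 474, against 2467 with all WT mice. Of 28 homeostatic astrocyte genes 21 fell in KO libraries (median -0.69) and 28 in WT libraries (median -1.40). The median of cytokine genes was 1.69 in KO and 2.41 in WT libraries, that of A2 genes 2.54 in KO and 2.93 in WT, and that of pan-reactive genes 2.10 in KO and 1.37 in WT. These differences between lists were not tested.

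**Figure D5:**
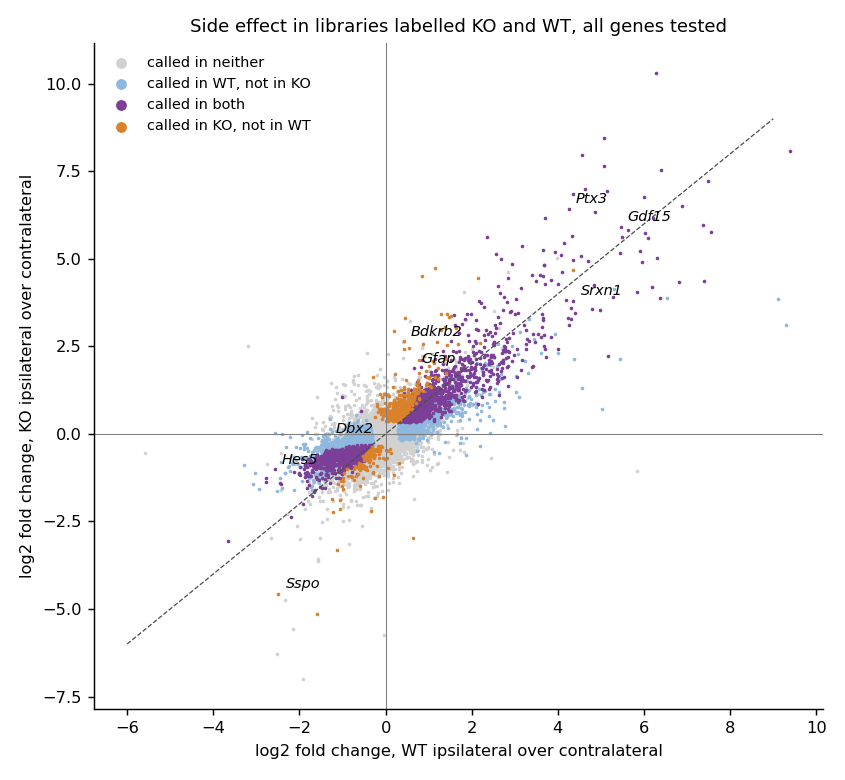
Log2 fold change of ipsilateral over contralateral libraries in mice labelled KO (vertical axis) against that in mice labelled WT (horizontal axis) for all 15571 genes tested, coloured by where a gene was called, with a dashed line where both are equal. Most genes called in both have the same sign in both, Gfap and Bdkrb2 lie above it, and Hes5 and Dbx2 lie above it with a smaller fall in KO than in WT.

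The test of the difference itself, KO minus WT, called no gene (0.00% of those tested) in edgeR's quasi-likelihood test, where the smallest adjusted p was 0.324 and 1553 genes had an unadjusted p under 0.05. DESeq2 in the same design called 98 genes, limma-voom 0 and the 2 fits on TPM 0. The smallest unadjusted p belonged to Dbx2, a homeobox transcription factor, which had 81.8, 92.7 and 91.1 CPM in KO ipsilateral libraries, against 97.3, 96.8 and 98.2 CPM in KO contralateral ones (-0.14 ± 0.12), while in WT libraries it had a log2 fold change of -1.32 ± 0.13. Bdkrb2, a bradykinin receptor, had 7.18, 4.08 and 5.25 CPM ipsilaterally, against 1.31, 0.662 and 0.693 CPM contralaterally (2.64 ± 0.26, adjusted p = 0.00205) and a WT log2 fold change of 0.42 ± 0.22. Hes5 had -1.004 ± 0.17 in KO and -2.57 ± 0.19 in WT libraries, Wnt7b had 0.02 ± 0.10 in KO and -0.91 ± 0.11 in WT, and Cbs, an enzyme of sulfur metabolism, had -0.45 ± 0.12 in KO and -1.39 ± 0.12 in WT. The difference of Gfap was 1.23 ± 0.27, with 1.88 ± 0.20 in KO and 0.66 ± 0.19 in WT libraries. In edgeR none of these differences passed the adjustment (adjusted p = 0.324 in each). DESeq2 called those of Dbx2 (adjusted p = 0.00133), Hes5 (0.000278), Wnt7b (0.00364), Cbs (0.0016) and Gfap (0.0016) and gave no adjusted p for Bdkrb2, while limma-voom (0.314) and limma on log2(TPM + 1) (0.423 to 0.518) called none of the 6. A p that misses the threshold does not show that both responses are alike.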

How the data were processed

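ACSA-2+ brain cells of 6 mice gave 12 RNA sequencing libraries in 4 groups of 3. The deposited table of each library holds, for 48709 genes, counts, TPM and RPKM made by the authors; per the submitters' processing notes the genome build is mm10. Aligner, counter and strand are not named by any label or file header, hence not given in the sources used here. The authors' counts were used as deposited; TPM served as an alternative and RPKM was not used. In 1066 genes a library had TPM above 0 without counts.

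Libraries were scaled by TMM and fitted with edgeR 4.0.16 (R 4.3.3; filterByExpr, minimum count 10; robust quasi-likelihood; 15571 genes, 4 residual degrees of freedom), with the mouse as block and 1 side term for KO and for WT. The p-values were adjusted over all genes by Benjamini-Hochberg and called under 0.05. The standard error is the log2 fold change divided by the square root of F. Libraries that share a number in their titles were taken as the 2 hemispheres of 1 brain, and their deviations from the group means correlated at 0.390, 0.501 and 0.203 in mice 295, 298 and 300 and at 0.695, -0.037 and 0.437 in WT mice 296, 297 and 474. The contralateral library of mouse 297 correlated at 0.490 with the ipsilateral one of mouse 474. On simulated counts for this comparison 15371 genes were tested, the changed ones included. Of these 80 of 100 genes changed 2-fold and 100 of 100 changed 4-fold were found, with 13 false calls. These rates hold for the simulated counts, and the share of real changes that was found was not tested.

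Alternatives were the fit without the block, the 6 KO libraries alone, DESeq2 1.42.0, limma 3.58.1 (voom, and log2(TPM + 1) and log2(TPM + 0.1)), other scalings and filters, and each mouse left out. Depth was 11187723 to 15780600 counts. Coordinates and exon overlaps are from GENCODE (GRCm38), promoters from RefSeq (GRCm38.p6).

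The comparison, its 33 function and 13 cell type lists and the named genes were chosen with earlier results of these data known. Named genes are the 15 largest rises and falls with a mean of at least 2 log2 CPM that moved alike in all 3 mice, up to 5 members of each list by smallest p, the 10 smallest p-values of the difference, and a few genes set by name. That the NF-kB pattern did not count towards printing a promoter was decided after its share was seen. The level of the targeted gene and 1 further gene named by this rule are not reported here.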

Additional observations from a re-analysis of the deposited data

How the results depend on the processing

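Without the block for the mouse 979 genes were called in KO libraries, 848 higher and 131 lower, and 2982 in WT libraries. With the 6 KO libraries alone 1531 genes were lower. On log2(TPM + 1) 1012 were higher and 1368 lower, and on log2(TPM + 0.1) 987 and 1274. Leaving out 1 mouse at a time gave 130 to 3628 calls in KO libraries, 128 to 2031 of them higher and 2 to 1597 lower, with 3628 without WT mouse 297 and 130 without KO mouse 295. In WT libraries it gave 2629 to 4854 calls, with 2846 without mouse 297 and 2629 without mouse 474. The difference between KO and WT had 98 calls in DESeq2 and 0 in edgeR with each mouse left out in turn. Of 190 named genes 119 stayed on their side of the threshold without the block and 71 lost the call; 133 lost it without mouse 295, 29 without mouse 298 and 106 without mouse 300. Signs turned only in genes that were not called. Hba-a2 was -0.0268 to 0.390 and Hbb-bs -0.0770 to 0.250 over the mice left out, both lowest without mouse 295, and Hbb-bs was -0.0238 on both TPM scales. Wnt7b was -0.0142 under upper-quartile scaling, -0.147 on log2(TPM + 1) and -0.148 on log2(TPM + 0.1). The cause was not tested. With 3 mice and a response that differs in size between them, a gene that is not called may still have changed.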

Other observations

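The genes below lie outside the lists and were named after their values were seen, so their calls by edgeR's quasi-likelihood test are a description. Itga5, the fibronectin receptor subunit, had 99.2, 64.4 and 109.7 CPM in the ipsilateral libraries of mice 295, 298 and 300, against 21.3, 14.6 and 17.5 CPM in the contralateral ones (log2 fold change 2.34 ± 0.15, adjusted p = 0.000601). Ucn2, a peptide of the corticotropin-releasing hormone family, had 5.48, 3.80 and 29.6 CPM ipsilaterally, against 0.164, 0.147 and 0.315 CPM contralaterally (5.81 ± 0.36, adjusted p = 0.000601). Acod1, which makes itaconate and is known from macrophages, had 4.07, 6.75 and 5.92 CPM ipsilaterally, against 0.0818, 0.294 and 0.126 CPM contralaterally (5.01 ± 0.42, adjusted p = 0.00163).

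Of 14 tested genes with a Snhg symbol, which host small nucleolar RNAs, 6 were called higher and 1 lower (median log2 fold change 0.16), with 4 and 0 without the block, 1 and 0 without mouse 295 and 0 and 1 without mouse 300. Snhg15 had 14.8, 9.08 and 18.1 CPM ipsilaterally, against 4.25, 3.60 and 3.34 CPM contralaterally (1.86 ± 0.29, adjusted p = 0.00925). Gas5 was higher by 0.83 ± 0.18, Snhg1 by 1.06 ± 0.19 and Snhg12 by 0.80 ± 0.22 on the log2 scale, and their exons overlap the small RNAs they carry. Of 81 tested protein-coding genes with a ribosomal protein symbol 76 were called higher and none lower (median 0.92), against 10.9% of all genes called higher. Without the block 65 were called higher and on TPM 70 (median 0.75), while without mouse 295 or without mouse 300 1 was called, with medians of 0.98 and 0.65. Ribosomal protein genes have many near-identical pseudogene copies, so the assignment of their reads is uncertain. Eef1a1, the elongation factor that delivers tRNA, was also higher by 0.999 ± 0.19 and the ribosomal protein gene Rplp0 by 1.19 ± 0.21. All contralateral libraries lay below all ipsilateral ones in Snhg15, Gas5, Snhg1, Snhg12, Eef1a1 and Rplp0.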
